A study of Mus musculus with 23 samples.

Results

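The response of wild-type (WT) mouse colon mucosa to dietary heme was described over all genes that the arrays measured above a signal minimum, with 6 heme-fed mice set against 5 control mice. These 11 arrays, of 23 in the whole series, are those whose titles give the WT genotype together with the control or the heme diet. Of 18820 genes with a value of their own, 14279 had a group mean above the log2 of a linear signal of 20 in either WT group, and these were the genes tested. All WT mice were male 129S1/SvImJ mice of 7 to 9 weeks at the start. Both groups ate a Westernized diet that gave 40% of energy from fat and held 30 µmol of calcium per g, and the heme-fed mice received 0.5 µmol heme per g of this diet for 14 days. Each array held 100 ng of RNA from the scraped mucosa of 1 mouse, with proximal and distal colon pooled and the middle 1.5 cm kept for histology. A further WT control array had been dropped by the authors for poor quality. Mice without a functional PPARα gene (KO, 129S4/SvJae-Pparatm1Gonz/J, 6 mice per diet, fed and sampled in the same way) are used below for a few values side by side, and in them genotype and substrain cannot be told apart. The question that the WT comparison answers is which genes of the colon mucosa respond to heme in the diet.

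Heme is the iron-containing pigment of red meat and reaches the colon in part undigested. Inside a cell, heme oxygenase opens its ring and releases iron, carbon monoxide and biliverdin, while ferritin stores the iron and ferroportin exports it. Peroxides and reactive aldehydes free the transcription factor NRF2 from its inhibitor KEAP1, and NRF2 then raises genes of glutathione and thioredoxin metabolism. PPARα is a nuclear receptor that binds fatty acids and their derivatives and raises genes of fatty acid oxidation. The colon mucosa itself renews from stem cells at the crypt base, through dividing cells higher in the crypt, to absorptive colonocytes, mucus-secreting goblet cells and hormone-secreting enteroendocrine cells.

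Signal is given on the linear scale as 2 to the power of the deposited log2 value, and every difference is a log2 fold change, heme over control. The log2 median of a WT array lay between 5.80 and 5.89. On the first principal component of the genes tested, with 55.3% of the variance, control mice lay between -28.5 and -16.7 and heme-fed mice between 4.6 and 28.2. Some arrays stood apart within their group. Control mice 1 and 2 had the highest smooth muscle markers, with mean log2 signals of 9.45 and 9.79 against 8.30 to 8.63 in the other controls and 7.68 to 8.18 in the heme-fed mice. Control mouse 3 had the lowest endothelial markers of all 11 mice (mean log2 signal 6.23, against 6.75 to 7.40 in the others) and also the lowest macrophage markers (5.89, against 6.44 to 6.75). Heme-fed mouse 4 lay closest to the controls on the first component. Markers of colonocytes were high in every mouse, with a summed signal of 52650 to 56387 in control and 56122 to 60136 in heme-fed mice. In such bulk samples, fewer cells of a type and less RNA per cell cannot be told apart.

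At an adjusted p under 0.01 from limma, heme changed 3366 of the 14279 genes, which is 23.6% of them, with 12.6% higher and 10.9% lower. Most changes were small. The median size of a called change was 0.40 on the log2 scale, or 1.32-fold, and 2529 called genes changed by less than 1.5-fold. At least 2-fold were 101 genes that rose and 102 that fell, and at least 4-fold were 19 that rose and 4 that fell. For 2780 of the genes tested (19.5%) the values of the 2 groups did not overlap, and 2393 of these were called. The upper end was thus longer than the lower one, as the plot of fold change against p shows. With the mean smooth muscle signal of each array as a covariate, which was added after seeing the data, the count was 1224. Of these, 1153 were also called in the fit without it, and 3354 of the 3366 genes kept their direction. In the WT mice this signal did not overlap between the diets (log2 8.30 to 9.79 in control and 7.68 to 8.18 in heme-fed mice). Diet and covariate are thus partly confounded, which lowers precision, so a call lost with the covariate cannot be assigned to muscle. Without control mice 1 and 2, 1826 genes were called and all 3366 kept their direction. With each array centred on the median of all probe sets, 66.5% of the called genes were higher, against 53.7% without centring.

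**Figure D1:**
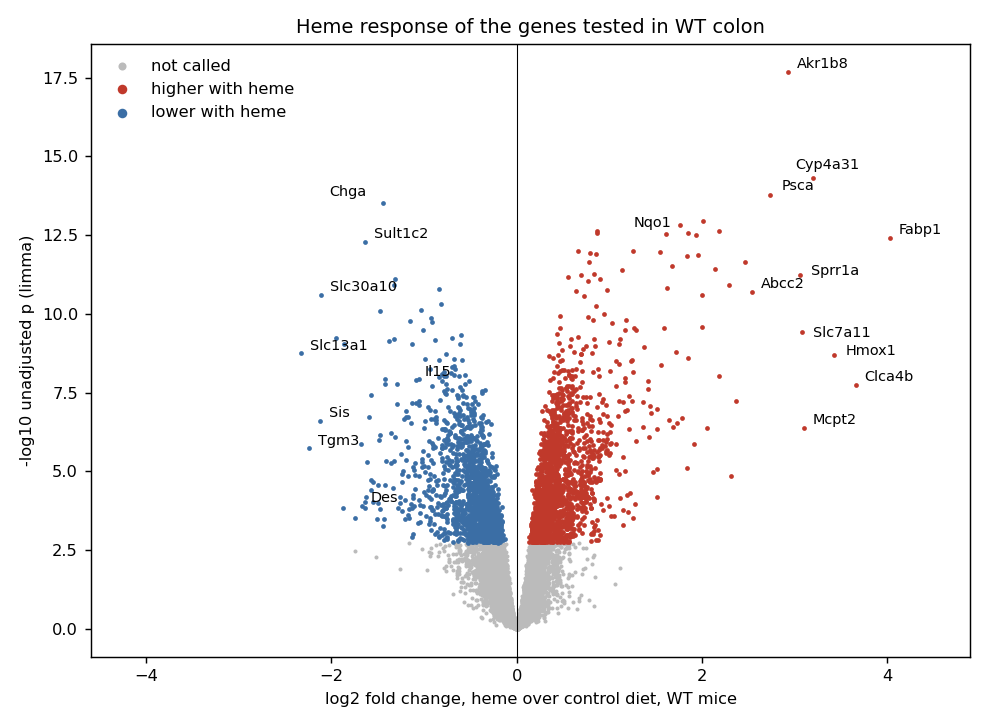
Each point is 1 of the 14279 genes tested, with its log2 fold change (heme over control, WT mice) on the x axis and the -log10 of its unadjusted limma p on the y axis. Red points are called higher and blue points lower with heme, and Akr1b8 has the smallest p, while Fabp1 has the largest rise at a log2 fold change of 4.03.

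Among the genes that handle heme and iron, the largest change was in heme breakdown. Hmox1, the inducible heme oxygenase, had linear signals of 65.1, 61.2, 57.3, 73.5 and 52.9 in the 5 control mice and between 154 and 1143 (median 829) in the heme-fed mice. The groups were far apart in every mouse, although heme-fed mouse 4, at 154, stood well below the other 5, of which the lowest had 751. Its log2 fold change was 3.43 (SE 0.36, limma adjusted p = 3.96e-07). Of 18 tested genes of heme breakdown and iron, 6 rose and 0 fell, and the median log2 fold change was 0.06, against -0.014 over all genes tested. Among the other 5 that rose were Slc40a1, the iron exporter ferroportin, with 0.54, the ferritin light chain Ftl1 with 0.33, and Aco1, the cytosolic aconitase that acts as an iron regulatory protein, with 0.33. The ferroxidase hephaestin (Heph, 0.30) and the iron chaperone Pcbp1 (0.24) also rose. Without control mice 1 and 2, 2 of the 18 were called, and with 1 mouse left out the count fell to 3 (without control mouse 2 or 5, or heme-fed mouse 3 or 5). Slc40a1, Ftl1 and Pcbp1 are the less certain calls, with adjusted p of up to 0.0369, 0.024 and 0.0127 when single mice were left out. Slc46a1, which encodes a carrier of folate and heme in the gut and was chosen after its values were seen, was lower in every heme-fed mouse than in any control. It stood at 304, 332, 391, 365 and 278 in the control mice and between 102 and 236 (median 110.3) in the heme-fed mice, with the highest of these, 236, again in mouse 4. The log2 fold change of Slc46a1 was -1.42 (SE 0.16, limma adjusted p = 1.44e-06).

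Heme synthesis, in contrast, moved in both directions, with 2 of 7 genes higher and 2 lower (median 0.05). The first enzymes of the pathway rose, Alas1 by a log2 fold change of 0.45 and Alad by 0.32. Urod and Ppox, which act later in it, fell, with -0.32 and -0.26. In the fit with the smooth muscle covariate 1 of these 4 was called, and 2 when control mouse 2 or 3 or heme-fed mouse 1, 3, 5 or 6 was left out, with adjusted p of up to 0.0294 for Alas1 and 0.0218 for Ppox.

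The promoters of 3 NRF2 target genes that rose are shown. Each has a core of the antioxidant response element, the DNA letters that NRF2 binds, within the last 150 bases before the gene start. For Txnrd1 the match lies in promoter 2 of its RefSeq entries. Ugdh, which was not called, also has cores there, at positions -132 and -94, and is not shown. The 3 stretches were taken from RefSeq on assembly GRCm38.p6. They run 5′ to 3′ on the strand of the gene up to the base before the start. Capitals mark the match to TGACNNNGC, here in each case on the opposite strand, where it reads GCNNNGTCA. The stretches are chr3:122245407-122245556, plus strand for Gclm, chr10:82859056-82859205, plus strand for Txnrd1 and chr4:116685449-116685598, plus strand for Prdx1.
Gclm: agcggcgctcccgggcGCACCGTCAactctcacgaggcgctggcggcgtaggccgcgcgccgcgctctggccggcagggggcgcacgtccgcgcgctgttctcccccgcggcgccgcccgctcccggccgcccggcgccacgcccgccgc
Txnrd1: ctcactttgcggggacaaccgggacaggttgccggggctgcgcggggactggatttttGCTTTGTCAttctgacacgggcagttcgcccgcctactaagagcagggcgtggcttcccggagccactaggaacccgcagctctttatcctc
Prdx1: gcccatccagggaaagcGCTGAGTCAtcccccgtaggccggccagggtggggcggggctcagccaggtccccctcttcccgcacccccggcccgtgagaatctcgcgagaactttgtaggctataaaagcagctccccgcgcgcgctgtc
Gclm encodes the modifier subunit of the enzyme that starts glutathione synthesis, Txnrd1 thioredoxin reductase and Prdx1 a peroxiredoxin that reduces peroxides. In the Prdx1 stretch the same letters also hold an AP-1 site (TGANTCA). Over windows of 300 bases, 250 before and 50 after the start, and on both strands, the core was present in 8 of the 15 NRF2 targets with a promoter in the RefSeq table (53.3%), against 14.0% of all 27025 genes with a promoter and 16.7% of the 11260 tested genes that have one. A match is a description of letters and not a measured binding site.

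Of 19 tested NRF2 targets, 17 rose and 0 fell, with a median log2 fold change of 0.79 against -0.014 over all genes. The values of 18 of the 19 did not overlap between the groups, where 19.5% of all genes tested did not. Slc7a11, the cystine carrier that supplies glutathione synthesis, stood at 32.5, 35.1, 43.2, 35.5 and 33.6 in control mice and between 84.2 and 491 (median 372) in heme-fed mice. Its lowest heme value again belonged to mouse 4 and still lay above every control, and the log2 fold change was 3.08 (SE 0.29, limma adjusted p = 1.08e-07). Nqo1, a quinone reductase, was at 163, 145, 158, 171 and 200.3 on control diet and between 509.7 and 668 (median 601) on heme, with a log2 fold change of 1.85 (SE 0.12, limma adjusted p = 4.92e-10). Gclc, the catalytic partner of Gclm, rose from 1359, 1261, 1512, 1411 and 1498 to between 3338 and 5367 (median 5028), a log2 fold change of 1.76 (SE 0.11, limma adjusted p = 4.88e-10), and Gclm itself by 1.00. Here the heme-fed mice formed a tight group apart from mouse 4. Me1, the malic enzyme that makes NADPH, rose by 2.14, the sulfiredoxin Srxn1 by 1.55, and the pentose phosphate enzymes Pgd, Tkt and Taldo1 by 0.87, 0.83 and 0.52. Glutathione reductase (Gsr, 0.79), Txnrd1 (0.78) and Prdx1 (0.45) rose too. Ugdh (0.32, adjusted p = 0.0103) and Mafg (0.20, adjusted p = 0.0329) were not called. The transcript of NRF2 itself, Nfe2l2, had a log2 fold change of -0.12 (adjusted p = 0.18). Averaged over the 19 genes, heme-fed mouse 4 had a log2 signal of 9.77, the other heme-fed mice 10.13 to 10.30 and the controls 8.90 to 9.04. With the smooth muscle covariate 15 of the 19 still rose, and 15 without control mice 1 and 2.

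**Figure D2:**
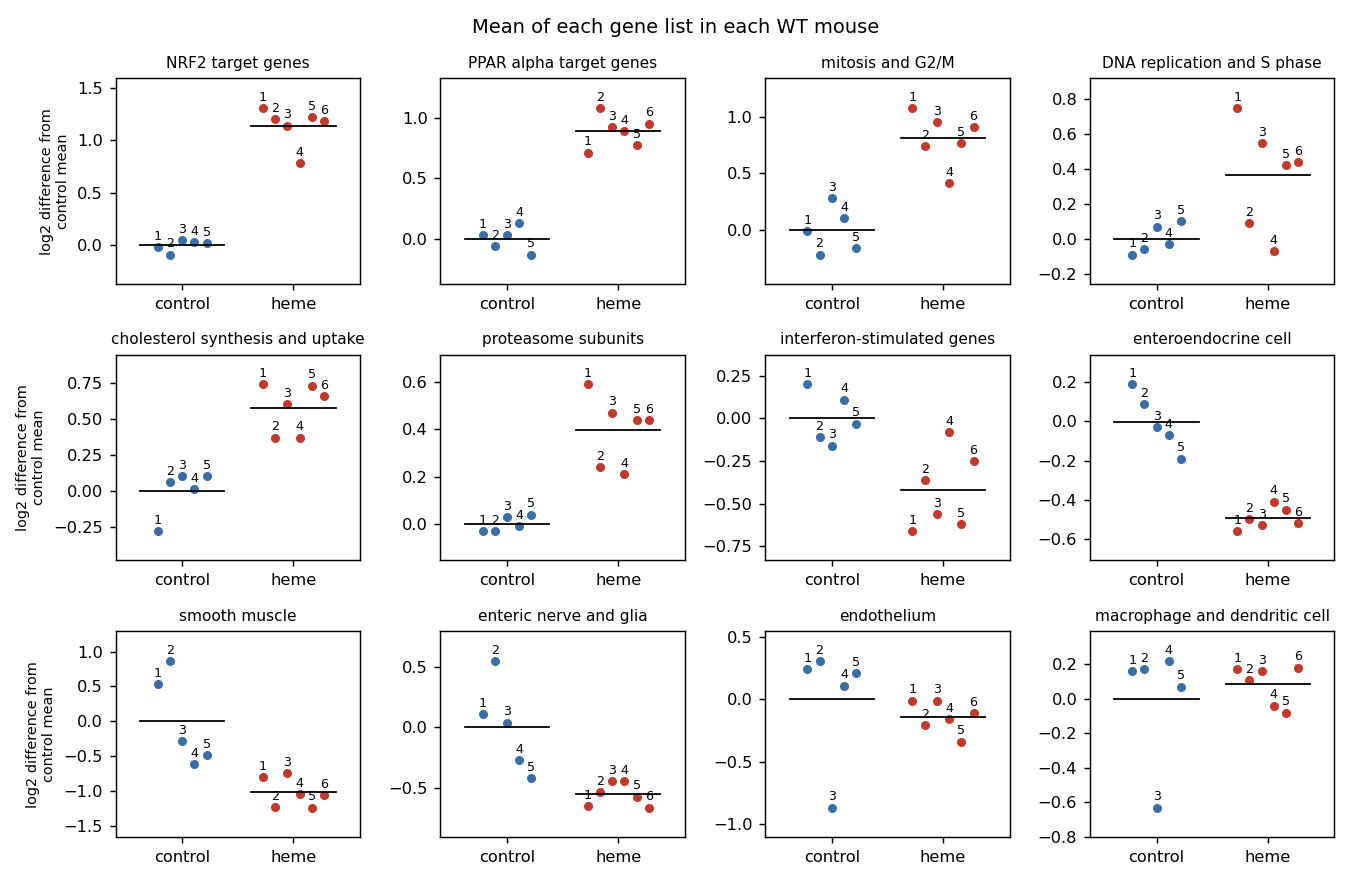
Each panel gives the mean log2 signal of 1 gene list in each WT mouse, as the difference from the mean of the 5 control mice, with the mouse number above the point and a line at each group's mean. NRF2 targets, PPARα targets and mitosis genes lie above all controls in every heme-fed mouse, while the S phase means of heme-fed mice 2 and 4 lie with the controls, and control mice 1 and 2 have the highest smooth muscle means.

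Akr1b8, an aldo-keto reductase that reduces reactive aldehydes, had the smallest p of all genes. Its signal was 325, 258, 338, 420.1 and 333 in control mice and between 2169 and 2795 (median 2518) in heme-fed mice, with a log2 fold change of 2.93 (SE 0.11, limma adjusted p = 3.89e-14). No heme-fed mouse came near the brightest control. Of 22 tested reductases and dehydrogenases of aldehydes and ketones, 11 rose and 1 fell (median 0.20). The carbonyl reductases Cbr3 and Cbr1 rose by 2.18 and 0.98, the hydroxysteroid dehydrogenase Akr1c18 by 2.00, and the aldehyde dehydrogenase Aldh1a7 by 1.62. The alcohol dehydrogenase Adh1 was the member that fell (-0.51). Glutathione transferases, which join glutathione to reactive molecules, gave 11 that rose and 1 that fell of 18 (median 0.41). Their largest rise was in Gsta3, from 95.96, 105, 111, 96.3 and 114 to between 274 and 376 (median 315), a log2 fold change of 1.61 (SE 0.11, limma adjusted p = 4.92e-10). Mgst1, Gstm6 and Gstm3 rose by 0.87, 0.76 and 0.64, and Gstt1 fell (-0.57). The probe sets that Gsta1 and Gsta2 share with each other and with near copies had larger differences, of 2.86 to 3.17 on the log2 scale in 4 probe sets, but these cannot be given to a single gene and were not tested. Of 23 enzymes for peroxide, superoxide and thioredoxin, 11 rose and 1 fell (median 0.22). Catalase (Cat) led them with 1.17, followed by Txnrd1. The glutathione peroxidase Gpx2 rose by 0.65 and Gpx4, which reduces lipid peroxides, by 0.53, whereas Txnip, an inhibitor of thioredoxin, fell (-0.30, adjusted p of up to 0.0381 with single mice left out). With the smooth muscle covariate 6 of the 18 transferases rose, and without control mice 1 and 2 the count of reductases and dehydrogenases that rose was 7.

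Genes of xenobiotic metabolism split, with 6 that rose and 5 that fell of 26 (median -0.03). The largest rises were those of export pumps. Abcc2, which carries glutathione and glucuronide conjugates out through the apical membrane, stood at 27.4, 27.9, 31.9, 31.1 and 24.8 in the control mice and between 103 and 268 (median 168) in the heme-fed mice. Abcc4, a pump for conjugates and cyclic nucleotides, was at 167, 178, 135, 161 and 144 and between 492 and 895 (median 637). Neither pump overlapped between the groups, and their log2 fold changes were 2.54 (SE 0.21, limma adjusted p = 9.17e-09) for Abcc2 and 2.01 (SE 0.13, limma adjusted p = 4.29e-10) for Abcc4. Abcg2, a pump that also carries porphyrins, rose by 0.65 and the basolateral pump Abcc3 by 0.47. Cytochromes P450 of the Cyp2c family made up the remaining rises, with 0.91 and 0.57, and another of that family was not called (-0.55). In the KO mice the heme effect on Abcc2 was 1.29 (adjusted p = 3.82e-05), and the difference between the genotypes was not called (adjusted p = 0.245). Conjugating and hydrolysing enzymes made up 4 of the 5 falls of this list. Sult1c2, a sulfotransferase, went from 784, 662, 872, 768 and 861 to between 197 and 306 (median 251) without overlap, with a log2 fold change of -1.64 (SE 0.11, limma adjusted p = 6.81e-10). The carboxylesterase Ces2a fell too (-1.49), as did the sulfotransferase Sult1a1 (-0.95), the epoxide hydrolase Ephx1 (-0.62) and the aryl hydrocarbon receptor Ahr (-0.32). With the smooth muscle covariate 3 of the 26 rose and 3 fell.

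Among PPARα targets 26 of 32 rose and 0 fell, with a median log2 fold change of 0.77. Heme gave a median log2 fold change of 0.57 in KO mice, taken over the members past the signal minimum there. That set can differ from the 32 members tested in WT mice, so these medians are not a comparison of the genotypes. The test of the difference between genotypes follows below. Fabp1, the fatty acid-binding protein of liver and gut, had signals of 21.7, 25.8, 27.8, 26.3 and 26.7 in WT control mice and between 174 and 827 (median 449) in WT heme-fed mice. Cyp4a31, a fatty acid hydroxylase, was at 13.99, 10.2, 11.8, 10.7 and 9.88 and between 80.9 and 214 (median 93.3), with the highest value in heme-fed mouse 2. Both genes lay near the signal minimum in every control mouse and rose in every heme-fed mouse, by 4.03 (SE 0.27, limma adjusted p = 5.58e-10) for Fabp1 and 3.20 (SE 0.18, limma adjusted p = 4.63e-11) for Cyp4a31 on the log2 scale. They were also the 2 genes, 0.0139% of 14366 tested, whose heme effect differed between the genotypes. In the KO mice their log2 fold changes were -0.22 (adjusted p = 0.598) and 0.29 (adjusted p = 0.217), which makes the difference, KO minus WT, -4.25 (adjusted p = 8.34e-07) and -2.91 (adjusted p = 5.11e-07). An unadjusted limma p under 0.05 for this difference was reached by 1051 of the 14366 genes, where chance alone gives a share of about 0.05. Pdk4, the kinase that shuts off pyruvate dehydrogenase, was at 486, 302, 172, 292 and 126 in WT control mice and between 1042 and 1799.5 (median 1252) in WT heme-fed mice, and its log2 fold changes in WT and KO mice were 2.37 and 3.02 (adjusted p = 4.72e-06 and 7.91e-08). Further members that rose in WT mice were Vnn1, a pantetheinase (1.56), Angptl4, an inhibitor of lipoprotein lipase (1.42), and Acaa1b and Ehhadh, enzymes of peroxisomal β-oxidation (1.36 and 1.07). The acyl-CoA thioesterases Acot1, Acot2 and Acot4 rose by 1.26, 1.17 and 1.11. Cpt2, which acts in the import of fatty acids into mitochondria, rose by 0.77, and Hadha, of mitochondrial β-oxidation, by 0.59. As a check of the labels, the probe set of Ppara had signals of 444 to 560.2 in WT and 240.0 to 378 in KO control mice, and of 344 to 475 in WT and 163 to 238 in KO heme-fed mice, although where it lies against the disrupted part of the gene was not examined. In WT mice Ppara had a log2 fold change of -0.26 (adjusted p = 0.0895). In the fit with the smooth muscle covariate 17 of the 32 rose. No promoter of the 27 targets with a RefSeq entry held 2 copies of AGGTCA 1 base apart, the letters of the PPAR element, within the window of 300 bases. Only 0.0481% of all promoters did. An exact match is so rare that its absence from 27 promoters says nothing about PPAR elements in these genes.

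Other genes of lipid transport and storage rose, several outside any list. Apoc2, the cofactor of lipoprotein lipase, stood at 243, 210.2, 255, 334 and 212 in control mice and between 1013 and 1642 (median 1422) in heme-fed mice, a log2 fold change of 2.47 (SE 0.18, limma adjusted p = 1.82e-09). Creb3l3, a membrane-bound transcription factor of liver and gut that acts on triglyceride metabolism, was at 50.1, 42.7, 53.1, 59.3 and 49.5 and between 239 and 254 (median 249). The heme-fed mice differed from each other by little here, and the log2 fold change was 2.29 (SE 0.18, limma adjusted p = 6.67e-09). Pla2g5, a secreted phospholipase, rose by 1.96 and Mfsd2a, a carrier of lysophosphatidylcholine, by 1.91. Cidec, a lipid droplet protein listed among adipocyte markers, rose by 1.21, the 1 called member of the 5 tested in that list.

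Cholesterol synthesis rose along most of its length, with 13 of 20 genes higher, 0 lower and a median of 0.71. Idi1, the isopentenyl diphosphate isomerase, had signals of 399, 539, 498, 524 and 526 on control diet and between 741 and 1168 (median 1015) on heme, without overlap. Its log2 fold change was 1.00 (SE 0.14, limma adjusted p = 1.39e-05). Control mouse 1 had the lowest mean of the list, 8.47 on the log2 scale, against 8.76 to 8.85 in the other controls and 9.11 to 9.49 in the heme-fed mice. Mvd, Cyp51 and Fdps followed with 0.98, 0.88 and 0.87. Some carriers of sterols fell. Abcg5, one of the paired pumps that return sterols to the lumen, fell from 152, 158, 182, 113 and 179.7 to between 36.6 and 76.96 (median 53.1), a log2 fold change of -1.57 (SE 0.29, limma adjusted p = 0.000304), and its partner Abcg8, chosen after its values were seen, had -1.02. Abca1, which loads cholesterol onto apolipoprotein A-I, had -0.66. The smooth muscle covariate left 6 of the 20 synthesis genes called and none of these carriers, with adjusted p of 0.0312 for Abcg5, 0.0186 for Abcg8 and 0.0716 for Abca1. Of 22 genes of fatty acid and glycerolipid synthesis, 10 rose and 1 fell (median 0.32), led by the phosphatidate phosphatase Lpin2 (1.18), the acylglycerol acyltransferase Mogat2 (0.96) and the desaturase Fads1 (0.78), and with the covariate 5 rose. The letters TCACNCCAC of the sterol regulatory element were in 1 of 16 cholesterol gene promoters (6.25%), against 1.44% of all promoters.

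Of the genes of glucose handling and hypoxia, 11 rose and 2 fell of 27 (median 0.14). G6pc, the catalytic subunit of glucose-6-phosphatase, was at 15.7, 12.1, 18.2, 13.2 and 11.99 in control mice, below the signal minimum in all of them, and between 40.4 and 96.9 (median 61.3) in heme-fed mice. Its log2 fold change was 2.18 (SE 0.25, limma adjusted p = 1.23e-06). Glycolytic enzymes rose by less, with 0.64 for Pgk1 and 0.53 for Pgam1, and Vegfa, the vascular growth factor, fell (-0.48). The count of rises was 5 without control mice 1 and 2 and 4 with the smooth muscle covariate. Subunits of the proteasome and of oxidative phosphorylation rose in 27 of 30 and 36 of 47 genes, with medians of 0.39 and 0.33 and no member with a log2 fold change above 0.81. With the covariate these counts were 16 and 19, and without control mice 1 and 2 17 of the proteasome subunits rose.

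Genes of dividing cells were the next large group. The promoters of Cdk1, the kinase that starts mitosis, of Cdc20, which activates the anaphase-promoting complex, and of Mki67, the Ki67 proliferation antigen, are shown because both sequence elements of late cell cycle genes lie close to their starts. They come from the same RefSeq source and assembly, in the same orientation, and capitals mark TTTGAA, the cell cycle homology region (CHR), and CCAAT, which reads ATTGG on the opposite strand. The stretches are chr10:69352913-69353062, minus strand for Cdk1, chr4:118437344-118437493, minus strand for Cdc20 and chr7:135716380-135716529, minus strand for Mki67.
Cdk1: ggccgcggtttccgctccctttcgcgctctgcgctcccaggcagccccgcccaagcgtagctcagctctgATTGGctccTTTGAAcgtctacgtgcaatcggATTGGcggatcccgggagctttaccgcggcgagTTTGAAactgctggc
Cdc20: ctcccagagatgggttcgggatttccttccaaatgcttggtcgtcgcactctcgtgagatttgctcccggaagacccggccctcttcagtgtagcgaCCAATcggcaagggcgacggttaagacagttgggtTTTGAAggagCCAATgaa
Mki67: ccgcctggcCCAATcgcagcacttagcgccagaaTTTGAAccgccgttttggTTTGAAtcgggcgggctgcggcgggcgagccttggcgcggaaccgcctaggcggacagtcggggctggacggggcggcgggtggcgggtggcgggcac
In windows of 300 bases and on both strands, 24 of 30 mitosis genes with a RefSeq promoter held TTTGAA (80.0%), against 20.2% of all genes with a promoter and 14.6% of those tested. CCAAT was in 24 of the 30 as well, against 41.1% and 41.9%. Both were present in 21 of 30 (70.0%), against 7.97% of all genes and 5.83% of those tested.

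**Figure D3:**
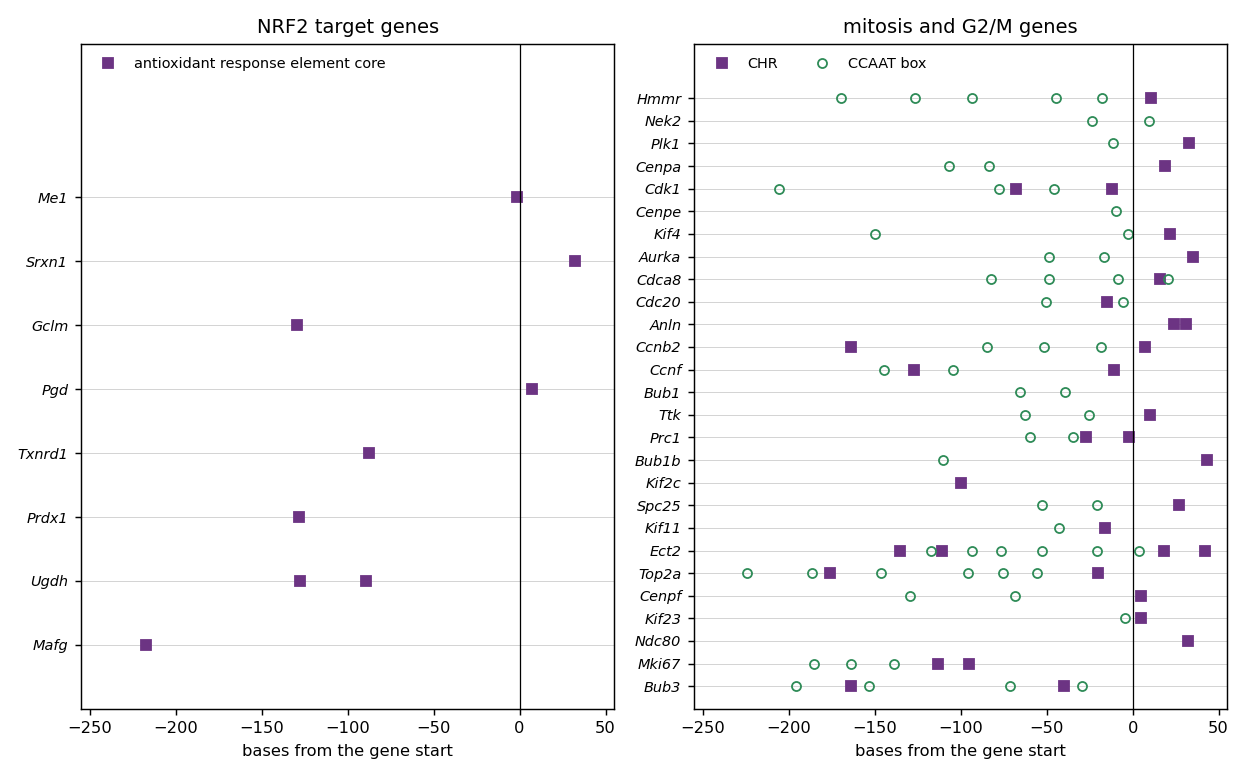
Distance of each sequence match from the gene start in bases (x axis, 250 before to 50 after the start) for NRF2 targets (left, antioxidant response element core TGACNNNGC) and mitosis genes (right, CHR as squares and CCAAT as circles), with genes in the order of their log2 fold change and only genes with a match drawn. Matches were present in 8 of 15 NRF2 target promoters, and both elements in 21 of 30 mitosis gene promoters.

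Of 35 genes of mitosis and G2/M, 34 rose and 0 fell. The median log2 fold change was 0.82, and their values were narrowly spread, from 0.22 to 1.09. Hmmr, a spindle protein, led with signals of 94.5, 69.4, 106, 96.5 and 72.5 in control mice and between 131 and 214 (median 199) in heme-fed mice, a log2 fold change of 1.09 (SE 0.15, limma adjusted p = 1.01e-05). Plk1 and Nek2, kinases of the spindle poles, both rose by 1.02, and Cenpa, the centromeric histone, by 1.01. For Cdk1 the control mice had 284, 228, 327, 312 and 259 and the heme-fed mice between 382 and 679 (median 538), with a log2 fold change of 0.93 (SE 0.13, limma adjusted p = 2.22e-05). The lowest heme value of Cdk1, in mouse 4, still exceeded all controls. Cdc20 rose by 0.86 and Mki67 by 0.59, and Bub3 was the member not called (0.22, adjusted p = 0.0948). The mean of the list was 7.21 to 7.72 in control mice on the log2 scale and 7.84 to 8.51 in heme-fed mice, again lowest in mouse 4. Given the smooth muscle covariate 24 of 35 rose and the median was 0.88.

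Genes of DNA replication and S phase behaved less evenly, with 12 of 40 higher, 0 lower and a median of 0.37. Rrm2, the small subunit of ribonucleotide reductase, had the largest change. In control mice it was at 123, 115, 129.9, 109 and 121 and in heme-fed mice at 425, 177, 328, 138, 301 and 299, so that mice 2 and 4 lay close to the controls and mouse 1 highest. Its log2 fold change was 1.12 (SE 0.23, limma adjusted p = 0.000817). Cyclin E1 (Ccne1) and thymidine kinase (Tk1) rose by 0.71 and 0.61, although in both genes the groups overlapped, and the adjusted p reached 0.0176 and 0.022 with single mice left out. The same order of mice showed in the mean of the 40 genes, with a log2 signal of 7.39 and 7.23 in heme-fed mice 2 and 4, 7.71 to 8.05 in the other heme-fed mice and 7.21 to 7.40 in the controls. The count depended on single mice. It was 23 of 40 without heme-fed mouse 4, and 4 to 6 without control mouse 1, 2 or 4 or heme-fed mouse 1, 3, 5 or 6. With the smooth muscle covariate, and likewise without control mice 1 and 2, 2 of the 40 rose. Markers of stem cells and the crypt base did not rise with the dividing cells. Of 14, 6 fell and 0 rose (median -0.36), among them the transcription factor Sox9 (-0.67), the Wnt receptor ligase Rnf43 (-0.60) and the BMP co-receptor Rgmb (-0.58). For Rnf43 the control mice had 618, 603, 650.2, 660.2 and 624 and the heme-fed mice between 379.8 and 492 (median 408), with no overlap (adjusted p = 1.35e-07). The stem cell receptor Lgr5 was at -0.22 (adjusted p = 0.0289), not called.

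Genes of the squamous epithelium and of wound repair gave 9 that rose and 2 that fell of 28 (median 0.26). Psca, a surface antigen of the Ly6 family in no list here, stood at 95.6, 121, 149, 127 and 146 in control mice and between 579.8 and 1088 (median 917) in heme-fed mice, a log2 fold change of 2.74 (SE 0.16, limma adjusted p = 1.07e-10). Its relatives Ly6g6c, Ly6m and Ly6d rose by 2.00, 1.85 and 1.43. Sprr1a, a cornified envelope protein, was at 238, 231, 182, 196 and 151 and between 833 and 2621 (median 1731), lowest in mouse 4 and highest in mouse 1 of the heme-fed mice, and led the list with 3.06 (SE 0.24, limma adjusted p = 3.87e-09). Slpi, which inhibits neutrophil proteases at mucosal surfaces, was at 209.8, 278, 229.7, 276 and 225 and between 746 and 1021 (median 958). The 2 groups of Slpi were each tight and far apart, at a log2 fold change of 1.94 (SE 0.13, limma adjusted p = 4.92e-10). Keratin 13 (Krt13) and Sprr1b, a relative of Sprr1a, rose by 0.82 and 0.81, and heme-fed mouse 1 stood highest in both, with 122 and 74.9 against no more than 54.5 and 26.8 in the other 5. Their adjusted p reached 0.0175 and 0.0132 with single mice left out, and without heme-fed mouse 1 the log2 fold changes were 0.57 for Krt13 and 0.53 for Sprr1b (adjusted p = 0.00328 and 0.000225). Tgm3, a transglutaminase, fell most, from 3009, 2605, 2729, 3366 and 2338 to between 188 and 1657 (median 512). Its heme-fed mice were far apart from each other, with the lowest value in mouse 1 and the highest in mouse 4, and the log2 fold change was -2.24 (SE 0.35, limma adjusted p = 5.2e-05). Clusterin (Clu) fell too, with a log2 fold change of -0.84, but its adjusted p reached 0.024 with single mice left out. Of 13 ligands and receptors of the EGF family 2 rose and 1 fell (median 0.06), against 23.6% called in either direction among all genes tested. Nrg1, a ligand of ErbB receptors, was at 83.7, 70.2, 60.2, 82.7 and 86.2 in control mice and between 107 and 227 (median 166) in heme-fed mice, a log2 fold change of 1.10 (SE 0.20, limma adjusted p = 0.00021), and Tgfa rose by 0.37. Ereg, another ligand, had 1.06 (adjusted p = 0.105), with 362 in heme-fed mouse 1 and 21.5 to 65.4 in the controls, and 0.64 without that mouse. Without heme-fed mouse 4, 5 of the 13 were called. Of 22 genes of AP-1, immediate early response and urokinase 3 rose and 0 fell (median 0.06), a share near the 12.6% of all genes tested that rose. They were Plat, the tissue plasminogen activator (1.28), Plaur, the urokinase receptor (1.22), and the phosphatase Dusp5 (0.83), and with the smooth muscle covariate 0 were called. Without control mice 1 and 2 the epidermal count was 5 higher and 1 lower, as it was with the covariate.

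**Figure D4:**
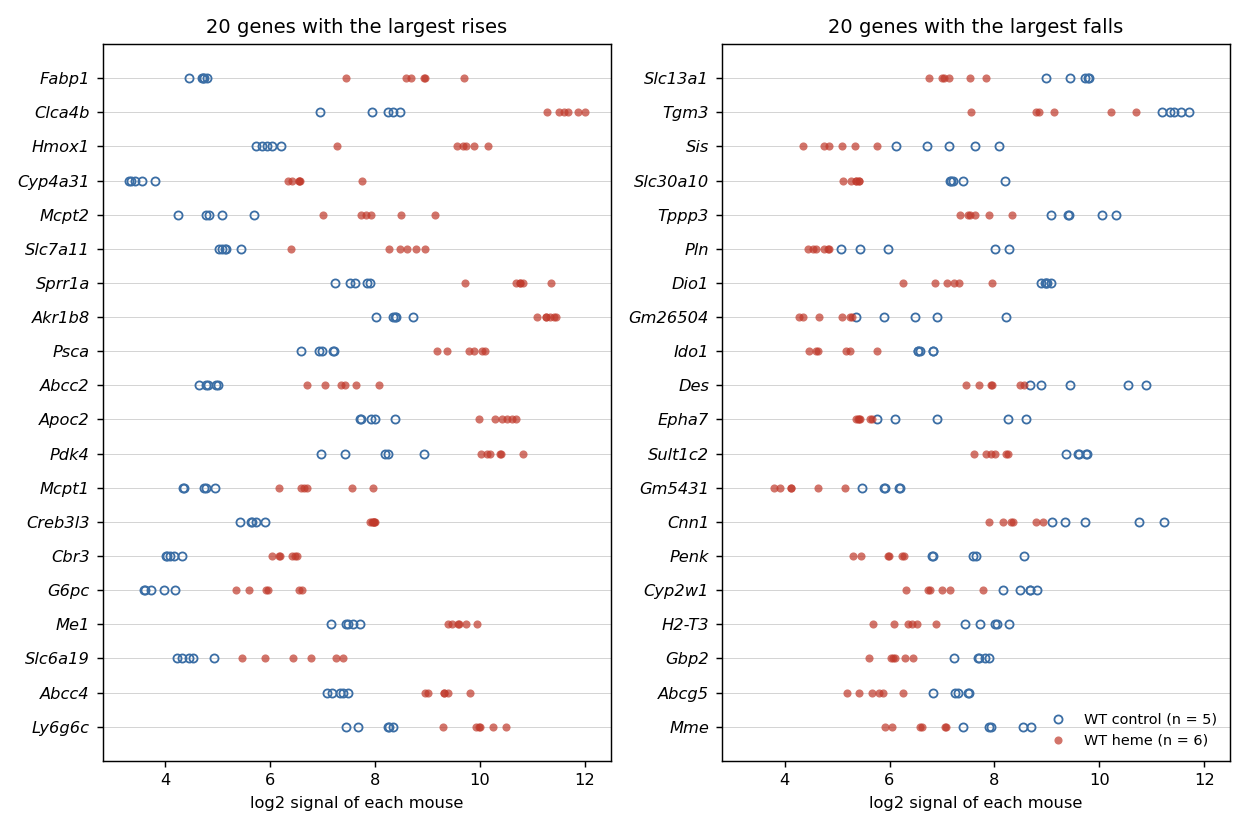
The log2 signal of each WT mouse (x axis) for the 20 genes with the largest rises (left) and the 20 with the largest falls (right) among called genes whose groups do not overlap, with open circles for the 5 control mice and filled circles for the 6 heme-fed mice. The rises reach a log2 fold change of 4.03 in Fabp1 and the falls -2.33 in Slc13a1, and in the smooth muscle genes Pln, Des and Cnn1 it is the control mice that spread.

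Transport across the colon epithelium changed in both directions, with 6 of 38 genes of ion and water transport higher and 9 lower (median -0.04). Aqp8, a water channel of surface colonocytes, stood at 1842, 1775, 1822, 2416 and 1578 in control mice and between 3605 and 4436 (median 4103) in heme-fed mice, with a log2 fold change of 1.12 (SE 0.11, limma adjusted p = 1.67e-07). Slc9a3, the sodium-proton exchanger of the apical membrane, rose by 0.69, the colonic proton pump Atp12a by 0.81 and the water and glycerol channel Aqp3 by 0.81. The largest fall of all genes was that of Slc13a1, a sodium-coupled sulfate carrier of the apical membrane, which went from 507, 697, 887, 844 and 897 to between 108 and 229.7 (median 136), a log2 fold change of -2.33 (SE 0.24, limma adjusted p = 3.71e-07). Slc4a4, a basolateral sodium bicarbonate carrier, fell from 2198, 2178, 2411, 2029 and 2276 to between 747 and 1121 (median 862). The controls of Slc4a4 were within a narrow range that no heme-fed mouse reached, and its log2 fold change was -1.32 (SE 0.11, limma adjusted p = 6.67e-09). Slc5a8, which takes up butyrate and other monocarboxylates, was at 4198, 4109, 4099, 4106 and 3918 on control diet and at 1149.5, 2613, 1898, 3245, 1873 and 2012 on heme. Mice 1 and 4 were the ends of that range, as for Tgm3, and the log2 fold change was -1.01 (SE 0.16, limma adjusted p = 6.12e-05). With the smooth muscle covariate 2 genes of the list rose and 7 fell.

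The brush border list was split evenly, with 8 of 33 genes higher and 8 lower (median 0.07). Slc6a19, the main carrier of neutral amino acids, was at 19.9, 21.7, 22.9, 30.6 and 18.8 in control mice and between 43.96 and 167 (median 98.1) in heme-fed mice, a log2 fold change of 2.05 (SE 0.29, limma adjusted p = 1.8e-05). Alpi, the intestinal alkaline phosphatase, rose from 435, 515, 639.7, 620.1 and 470.1 to between 1219 and 1628 (median 1268), a log2 fold change of 1.36 (SE 0.17, limma adjusted p = 5e-06), and Slc7a9, a carrier of cystine, by 1.00. In all 3 genes every heme-fed mouse exceeded every control. Sis, sucrase-isomaltase, fell from 197, 69.9, 140.2, 272 and 106 to between 20.4 and 54.1 (median 31.3), a log2 fold change of -2.12 (SE 0.29, limma adjusted p = 1.28e-05), and its controls were spread widely but stayed above all heme-fed mice. Other falls included Mme, a membrane peptidase (-1.55), the fructose carrier Slc2a5 (-1.17) and Cubn, the receptor cubilin (-1.14). Metallothionein 4 (Mt4), which binds zinc and copper, rose from 27.7, 26.4, 28.8, 28.5 and 28.3 to between 49.4 and 171 (median 89.4), a log2 fold change of 1.69 (SE 0.24, limma adjusted p = 1.8e-05). Mt1 rose by 0.73. Of 24 genes of metallothioneins and zinc carriers 4 rose and 2 fell, a share near the 23.6% called among all genes tested. Slc30a10, a metal exporter of the zinc transporter family, was at 293, 170.0, 142, 145 and 148 in control mice and between 34.4 and 42.9 (median 41.1) in heme-fed mice. Its heme-fed mice lay within a narrow range below every control, with a log2 fold change of -2.11 (SE 0.17, limma adjusted p = 1.13e-08). Mt1 was not called without control mouse 2 (adjusted p = 0.0114), and with the smooth muscle covariate 1 rose and 2 fell.

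Cytokines listed as epithelial fell where they changed, although in bulk samples the cells that made them are not known. Of 16, 6 fell and 0 rose (median -0.24), and 4 fell with the smooth muscle covariate. Il33, an alarmin of epithelial and stromal cells, was at 49.2, 59.3, 49.1, 45.1 and 42.6 in control mice and between 24.1 and 28.5 (median 25.9) in heme-fed mice, without overlap, and its log2 fold change was -0.90 (SE 0.14, limma adjusted p = 4.41e-05). Il34, a ligand of the macrophage receptor CSF1R, fell with a log2 fold change of -0.75 (SE 0.12, limma adjusted p = 8.12e-05), and Tgfb2 and Tnfsf13b, the B cell factor BAFF, had log2 fold changes of -0.74 and -0.68. H2-T3, a non-classical MHC class I molecule of gut epithelium that T cells in the epithelium bind, stood at 211, 174, 265, 258 and 311 and between 51.3 and 119 (median 83.99). All heme-fed mice lay below the lowest control, with a log2 fold change of -1.57 (SE 0.19, limma adjusted p = 3.38e-06). Interferon-stimulated genes had a median of -0.40, and 4 of 30 fell and 0 rose, where 10.9% of all genes tested fell. Gbp2, a guanylate-binding protein, went from 209, 226, 149.5, 239 and 207 to between 48.7 and 87.4 (median 67.9), a log2 fold change of -1.57 (SE 0.31, limma adjusted p = 0.000528), and Ifit1 and Irf7 fell too, with -1.51 and -0.76. Without control mouse 1 neither was called (adjusted p = 0.011 and 0.0225), which left 2 of the 30. Irf7 was also not called without control mouse 2, 4 or 5 or heme-fed mouse 1, 3 or 5 (adjusted p of up to 0.0245). Of the 30, 1 was called with the smooth muscle covariate or without control mice 1 and 2. Of 26 antimicrobial and inflammatory genes 1 rose and 3 fell, against 23.6% called in either direction among all genes tested. Pla2g2a, a secreted phospholipase, was higher by 1.64 and the antimicrobial ribonuclease Ang4 was at -1.48. Ido1, which degrades tryptophan, was the lowest of those called, at -1.68 (adjusted p = 4.19e-05), with signals of 93.1 to 114 in control and 22.00 to 54.5 in heme-fed mice. Reg3b, an antibacterial lectin, had -1.75 (adjusted p = 0.0162) and was not called.

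The share of calls among secreted signals of the crypt was near the 23.6% of all genes tested. Of 30 genes of Wnt signalling 1 rose and 5 fell (median -0.14), and of 24 of hedgehog and BMP signalling 0 rose and 4 fell (median -0.14). Sfrp1, a secreted inhibitor of Wnt signals, was at 489, 562, 484, 515 and 508 in control mice and between 159.6 and 322 (median 219.7) in heme-fed mice, a log2 fold change of -1.19 (SE 0.16, limma adjusted p = 1.07e-05). Bmp3, of the BMP family, was at 602, 680.3, 939.8, 768 and 784 and between 251 and 477 (median 319), a log2 fold change of -1.13 (SE 0.14, limma adjusted p = 5.08e-06). The groups of both genes did not overlap. Given the covariate, 3 of the 30 and 2 of the 24 were called. Of 24 genes of tight junctions and adhesion 1 rose and 4 fell (median -0.10), a share near the 23.6% called among all genes tested. The largest fall was that of claudin 15 (Cldn15, -0.42, adjusted p of up to 0.0136 with single mice left out). The count of this list rests on single mice, with 2 or 3 calls without control mouse 3, 4 or 5 or heme-fed mouse 5, and 0 with the covariate. Ribosome biogenesis gave 3 rises of 30 (median 0.19), a share near the 12.6% of all genes tested that rose, and 1 without control mice 1 and 2. Of 10 genes of MHC class II presentation 1, the protease cathepsin S (Ctss), fell (-0.73), where 10.9% of all genes tested fell. Without heme-fed mouse 2 there were 2 calls in this list.

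Of 25 genes of the unfolded protein and integrated stress response 4 rose and 0 fell (median 0.20), where 12.6% of all genes tested rose. They were Psat1 and Phgdh, enzymes of serine synthesis (1.17 and 0.69), the glutathione-degrading Chac1 (0.56) and asparagine synthetase (Asns, 0.36). Chac1 and Asns had adjusted p of up to 0.0331 and 0.0335 with single mice left out, and 2 of the 25 were called without control mouse 2 or 5 or heme-fed mouse 1, 3 or 5. Psat1 was at 85.7, 97.8, 92.8, 95.2 and 81.1 in control mice and between 122 and 365 (median 223) in heme-fed mice, with mice 2 and 4 the lowest of the heme-fed mice as for Rrm2. Among 21 heat shock proteins and chaperones 3 rose and 2 fell (median 0.26), a share near the 23.6% called among all genes tested. The letters GAANNTTC of the heat shock element were in 9 of 18 of their promoters, against 9.04% of all promoters. The 2 that fell, Hspb1 and Hspb8, are small heat shock proteins. Hspb1 was at 366, 410.4, 161, 158 and 165 in control mice, highest in mice 1 and 2, and its log2 fold change of -1.12 (adjusted p = 0.000809) became -0.20 (adjusted p = 0.455) with the smooth muscle covariate. For Hspb8 the same values were -0.95 (adjusted p = 0.00353) and 0.02 (adjusted p = 0.943). As diet and covariate are partly confounded, the loss of these 2 calls cannot be assigned to muscle. Of 26 p53 targets and apoptosis genes 6 rose and 3 fell (median 0.03), against 23.6% called in either direction among all genes tested. The kinase Plk3 (0.86) and Gadd45a (0.73) were highest and the death receptor Fas was lowest (-0.77). The adjusted p of Plk3 reached 0.0353 with single mice left out. The 9 calls of the p53 list became 4 or 5 without control mouse 1 or 2 or heme-fed mouse 1 or 5, and 2 without both of these control mice.

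Marker genes of other cell types moved with the diet as well. Mast cell proteases of the mucosal type rose. Mcpt2 was at 18.9, 28.5, 27.3, 33.8 and 51.7 in control mice and between 129 and 561 (median 236) in heme-fed mice, a log2 fold change of 3.10 (SE 0.44, limma adjusted p = 1.8e-05). Mcpt1 rose by 2.31 and the mast cell carboxypeptidase Cpa3 by 1.15. In all 3 the heme-fed mice lay above the controls, with mouse 5 highest and mouse 4 lowest. Mcpt4, a protease of connective tissue mast cells, was not called (0.37, adjusted p = 0.137), and Kit, the stem cell factor receptor of mast cells and of the pacemaker cells of the gut, fell from 501, 505, 458, 436 and 409 to between 206 and 325 (median 251), a log2 fold change of -0.83 (SE 0.10, limma adjusted p = 4.55e-06). Over the 10 mast cell markers the summed signal was 675 to 761 in control and 736 to 1332 in heme-fed mice. With the smooth muscle covariate the adjusted p of Mcpt1 was 0.0129 and that of Cpa3 0.03, both above the threshold of 0.01.

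Of 13 enteroendocrine markers 7 fell and 0 rose (median -0.42), and the summed signal was 5801 to 7041 in control and 4658 to 5209 in heme-fed mice. Chga, the granule protein chromogranin A, had the smallest p among all genes that fell. It was at 2009.7, 1792, 2072, 2083 and 2083 in control mice and between 690.3 and 818 (median 730.2) in heme-fed mice, a log2 fold change of -1.44 (SE 0.09, limma adjusted p = 1.45e-10). Tph1, the enzyme of serotonin synthesis in enterochromaffin cells, was at 328, 206, 214, 186 and 232 and between 91.5 and 119 (median 101), with a log2 fold change of -1.14 (SE 0.16, limma adjusted p = 1.39e-05). Tac1, the precursor of substance P, fell with a log2 fold change of -1.25 (SE 0.20, limma adjusted p = 7.19e-05). Chromogranin B (Chgb) had -1.03 (SE 0.09, limma adjusted p = 3.05e-08) and the prohormone convertase Pcsk1 -0.84 (SE 0.10, limma adjusted p = 1.28e-06). Somatostatin (Sst, -1.07) was called too, but its control mice ran from 99.9 to 577 with mouse 2 highest, and with the smooth muscle covariate its log2 fold change was -0.24 (adjusted p = 0.589). Without control mouse 1 the adjusted p of Sst was 0.0128. The hormones of L cells were not called. Gcg, which encodes the glucagon-like peptides, had 0.28 (adjusted p = 0.0742), peptide YY (Pyy) 0.27 (adjusted p = 0.0191) and Insl5 0.41 (adjusted p = 0.0685). With the covariate 4 of the 13 fell. Among 10 tuft cell markers 3 fell and 0 rose (median -0.22), including the channel Trpm5 (-0.64) and Dclk1 (-0.49). Of 14 goblet cell and mucus genes 5 fell and 0 rose (median -0.19), led by the membrane mucin Muc1 (-1.26) and Clca1 (-0.55), and the count was 2 without control mice 1 and 2 and 1 with the covariate.

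Markers of the muscle layer fell most as a group. Of 15 smooth muscle genes 12 fell, at a median of -1.11 on the log2 scale and with a summed signal of 7075 to 20232 in control and 4186 to 6343 in heme-fed mice. Des, the muscle intermediate filament desmin, was at 1494, 1887, 693, 412 and 472 in control mice and between 177 and 376 (median 246) in heme-fed mice, so that control mice 1 and 2 stood far above the other 3. Its log2 fold change was -1.67 (SE 0.36, limma adjusted p = 0.00121). Without these 2 mice 2 of the 15 were called and the median was -0.56. Enteric nerve and glia markers gave 6 falls of 10 (median -0.56), and 1 without the same mice. Fibroblast and endothelial markers gave 1 fall each of 17 and 11, where 10.9% of all genes tested fell. Their summed signals were 4183 to 13637 and 878 to 2019 in control mice, and 5985 to 7821 and 1276 to 1634 in heme-fed mice. Of 14 macrophage and dendritic cell markers and of 9 B and plasma cell markers 0 were called, at medians of 0.10 in both, while 3 of 12 T and NK cell markers fell (median -0.30). Without control mouse 3, which had the lowest endothelial markers, the fibroblast and endothelial counts were 9 and 6. What part the muscle layer has in the other changes was not tested beyond the covariate and the omission of the 2 mice.

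**Figure D5:**
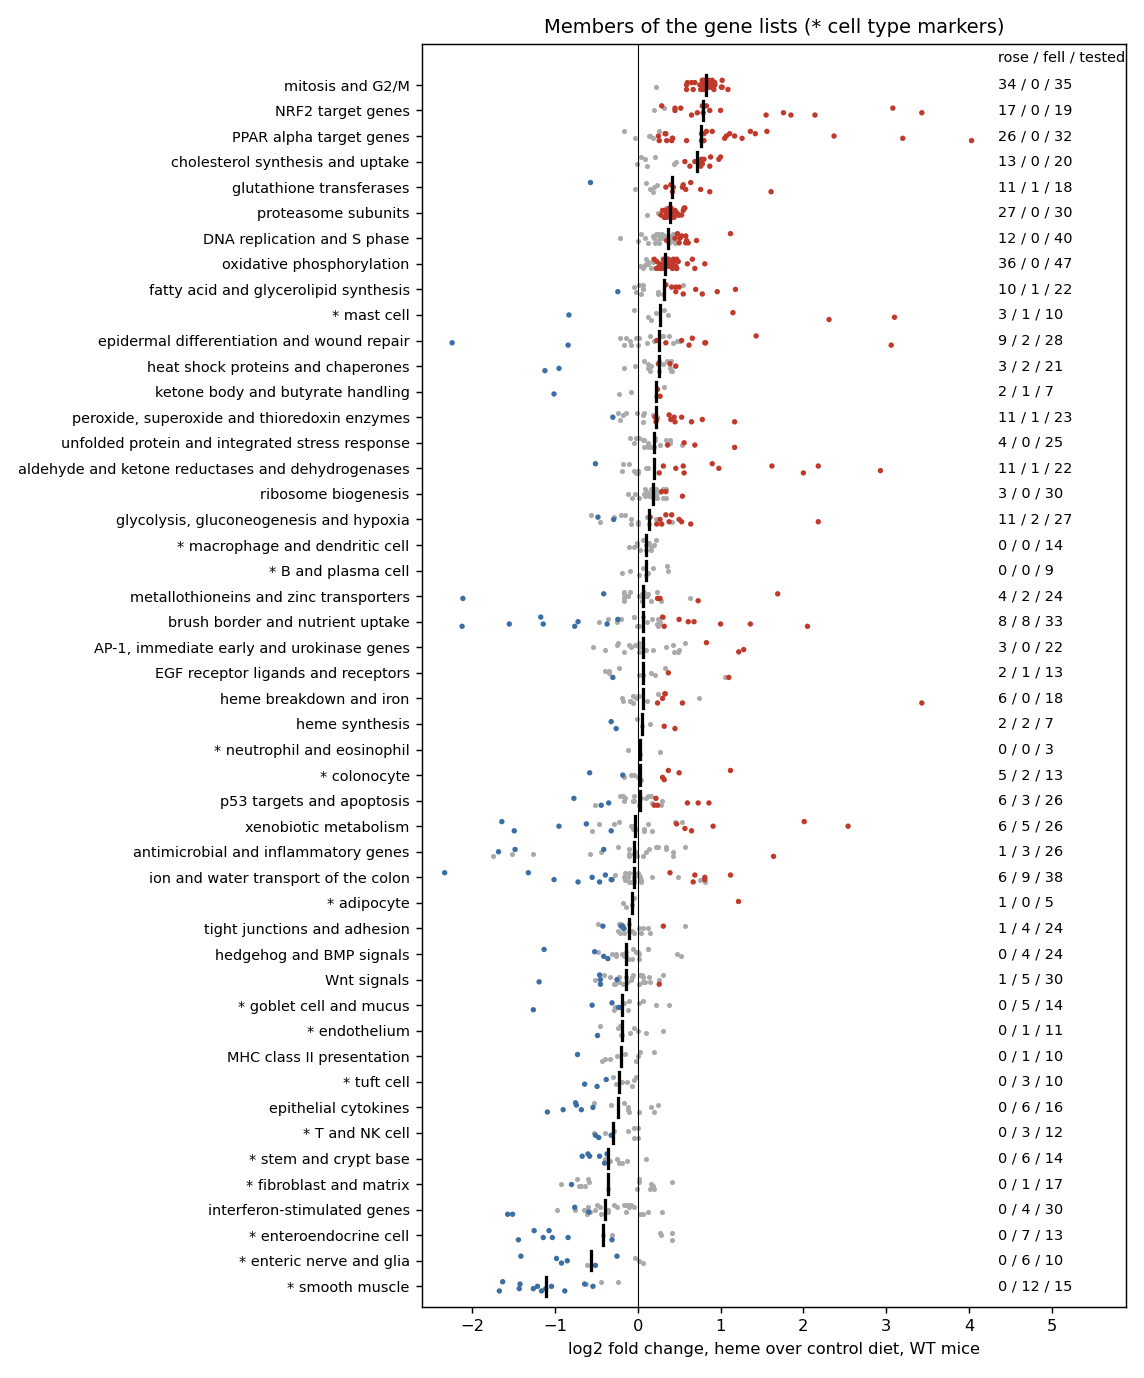
Log2 fold change (x axis, heme over control, WT mice) of each tested member of the 48 gene lists, in order of the list median (black bar), with genes called higher in red, called lower in blue and not called in grey, and the counts at the right. Mitosis, NRF2 target, PPARα target and cholesterol genes have the highest medians, from 0.71 to 0.82, and smooth muscle genes the lowest at -1.11.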

How the data were processed

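RNA from scraped colon mucosa of 1 mouse per array was hybridised to Affymetrix Mouse Gene 1.1 ST arrays. The authors made the deposited log2 values by robust multi-array average (RMA), which corrects background and sets all arrays to the same distribution, so a shift of most genes at once could not be seen. The study's methods name reorganised probe sets, while the deposited values belong to Affymetrix transcript clusters. Of 35556 probe sets, 21218 have 1 gene symbol in the platform annotation, 1881 have several and 12457 have none, and 21185 were matched to RefSeq (GRCm38.p6) by gene ID. This gave 18820 genes. For 1386 genes with several probe sets the brightest was used.

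Groups came from the sample titles. The 4 groups (23 arrays) were fitted together with limma 3.58.1 in R 4.3.3, as lmFit and eBayes, with Benjamini-Hochberg adjustment over all 18820 genes. A gene was called at an adjusted p under 0.01 and a mean above the log2 of 20 in either group, the study's thresholds. For the difference between genotypes the mean had to pass in any of the 4 groups. All adjusted p-values are two-sided. The mice were housed individually, and the labels do not say whether they shared a litter, so p-values measure the spread between these arrays. Arrays have no read depth, and their number limits the precision. Tables and figures were made with Python 3.11.15 (numpy 2.4.6, pandas 2.3.3, matplotlib 3.10.9), and the fit was tested on simulated data.

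The members and lists were chosen with earlier results of these data known, so a list's count is a description. The genes named came from the 20 largest rises and 20 largest falls without overlap between the groups, the 10 largest each way in no list, up to 4 called genes per list and direction (or the 3 largest of a list with fewer than 3 called), genes the study names, the 10 smallest p and the genes called for the difference between genotypes. Outside this rule, and thus chosen after their values were seen, were Abcc3, Abcg8, Ahr, Bub3, Cbr1, Cdc20, Cdk1, Chgb, Ereg, Gcg, Gclm, Gsr, Heph, Insl5, Lgr5, Mafg, Mcpt4, Pcbp1, Pcsk1, Prdx1, Pyy, Reg3b, Slc46a1, Srxn1, Taldo1, Tkt, Tnfsf13b, Ugdh and the genes of the closing observations. Alternatives were the arrays in the fit, signal minimum, threshold, size of change, variance model, scale, array weights, centring, probe set per gene, replicate number as a block and omission of each WT array, with a smooth muscle covariate, centring on all probe sets and omission of control mice 1 and 2 chosen after seeing the data. Probe sets shared by several genes stayed outside the fit.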

Additional observations from a re-analysis of the deposited data

Results flagged for a closer look

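In 39 of 478 groups examined (a gene or a list mean in the 5 control or the 6 heme-fed WT mice) 1 mouse stood far from the others, where chance gives about 5%. Gene values here are linear signals and list means are log2 signals.

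Heme-fed mouse 4 had the lowest value of its group in Hmox1 (154, against 751 to 1143 in the other 5), Slc7a11 (84.2, against 305 to 491), Gclc (3338, against 4890.0 to 5367), Idi1 (741, against 999.6 to 1168), Fads1 (303, against 439.7 to 525) and Slpi (746, against 909 to 1021). It also had the lowest mean of NRF2 targets (9.77, against 10.13 to 10.30) and the highest Slc46a1 (236, against 102 to 121). Each of these 8 values lay on the side of the controls.

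Heme-fed mouse 1 stood highest in Plaur (412, against 127 to 179), Ereg (362, against 58.4 to 78.9) and Sprr1b (74.9, against 19.7 to 26.8), and in the means of the epidermal list (8.88, against 8.24 to 8.43) and of EGF ligands and receptors (8.62, against 8.18 to 8.34). It stood lowest in Heph (585, against 635 to 659.9). Heme-fed mouse 2 stood highest in Cat (5837, against 4162 to 4556), Gclm (3216, against 2139.6 to 2449) and Cyp4a31 (214, against 80.9 to 94.6), and in the mean of tuft cell markers (6.19, against 5.95 to 6.03), and lowest in that of heme synthesis (8.38, against 8.48 to 8.53).

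Among the control mice, mouse 3 stood lowest in the list means of endothelium (6.23, against 7.20 to 7.40), macrophages (5.89, against 6.59 to 6.75), MHC class II presentation (8.16, against 8.69 to 8.87), hedgehog and BMP signals (7.65, against 8.09 to 8.23), Wnt signals (6.12, against 6.30 to 6.36) and peroxide enzymes (9.09, against 9.21 to 9.23), and highest in Bub3 (279, against 252 to 255). Mouse 1 stood lowest in Idi1 (399, against 498 to 539), Mvd (73.6, against 98.7 to 105), Mgst1 (323, against 372 to 380.5) and the cholesterol mean (8.47, against 8.76 to 8.85), and highest in Slc30a10 (293, against 142 to 170.03), Dusp5 (129.8, against 118 to 120.4) and the mean of the unfolded protein response (8.88, against 8.76 to 8.79). Mouse 2 stood lowest in Chga (1792, against 2009.7 to 2083) and Chgb (529, against 605 to 632). Mouse 4 stood lowest in Ang4 (138, against 234 to 252) and highest in Vnn1 (232, against 150.2 to 160.2) and Slc51b (851, against 659 to 696). Mouse 5 stood highest in the mean of AP-1 and immediate early genes (7.80, against 7.39 to 7.51).

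The heme effect differed between the genotypes in Cyp4a31 (KO minus WT -2.91 on the log2 scale) and Fabp1 (-4.25), by the test of the difference in limma.

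Signals also appeared in probe sets shared by several genes, which stayed outside the fit and have no test. Their log2 fold changes were 3.69 for Cyp4a31 with Cyp4a10, 3.58 for Cyp4a32 with Cyp4a31 and Cyp4a10, 3.17, 3.17 and 2.96 for 3 probe sets of Gsta1, Gsta2 and near copies, 2.86 for another without Gm3776, 1.69 for Clca4a with Clca4b and -1.66 for Sphk2 with Dbp.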

How the results depend on the processing

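Apart from the alternatives added after seeing the data, the count of called genes (3366, with 1806 higher and 1560 lower) moved by over 1.5 times only with the thresholds, to 5089 at an adjusted p under 0.05 (2475 lower) and to 837 with a change of at least 1.5-fold added (421 higher and 416 lower). Of the alternatives chosen after seeing the data, the smooth muscle covariate gave 1224 (670 higher and 554 lower) and omission of control mice 1 and 2 gave 1826 (997 and 829). With 1 WT mouse left out the count ran from 2585 to 3600, from 1403 to 1921 higher and from 1182 to 1700 lower. It was 2509 with WT arrays only, 3093 on the linear scale and 4190 with array weights. Centring on all probe sets gave 3454, and moved the median of all genes from -0.014 to 0.03. The number of genes that differed between the genotypes was 2 under each alternative run. The labels do not say whether the replicate numbers pair the mice. Correlations of same-numbered control and heme-fed mice ran from -0.154 to 0.165, and 1 of 5 controls correlated best with its own number. So few pairs cannot exclude a pairing, and the replicate block gave 3236 calls. Of 175 called genes named here, 149 were called in each of 16 other fits run for single genes, 138 without control mice 1 and 2 and 118 with the covariate, where Hspb8 turned direction (0.02). The causes of these shifts were not tested. Values near or below the signal minimum of 20, as in the controls of Cyp4a31 and G6pc, lie close to background, which limits their fold changes.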

Other observations

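Genes of the circadian clock, chosen after their values were seen and in no list here, changed in both directions. Per3 and Per2, repressors of the clock loop, had log2 fold changes of -1.50 (SE 0.29, limma adjusted p = 0.000383) and -1.24 (SE 0.22, limma adjusted p = 0.000213), and Arntl, the activator BMAL1, had 1.00 (SE 0.22, limma adjusted p = 0.00122). Per3 stood at 249, 384, 366, 383 and 572 in the control mice and between 68.7 and 208 (median 147) in the heme-fed mice, while Arntl stood at 177, 144, 134, 104 and 95.1 and between 179 and 371 (median 264), without overlap in either gene. The repressor Nr1d2 (-0.65, adjusted p = 0.00378) and the output factors Tef (-0.86, adjusted p = 0.00535) and Hlf (-0.94, adjusted p = 0.00243) were called lower, but each lost its call with some single mice left out, with adjusted p of up to 0.0103, 0.0191 and 0.0111. For Nr1d2 and Hlf this was control mouse 2, and for Tef it was 7 of the 11 mice. Clock itself had 0.08 (adjusted p = 0.419), and Per1 (-0.37, adjusted p = 0.169) and Cry1 (0.56, adjusted p = 0.0114) were not called. In the KO mice the heme effect on Per3, Per2 and Arntl was -1.46, -1.09 and 0.88 (adjusted p = 0.000294, 0.000453 and 0.00232). The labels give no time of day for each mouse, so the part of the time of sampling was not tested.

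The subunits of the basolateral bile acid and steroid carrier, also chosen after their values were seen, had log2 fold changes of opposite sign. Slc51b was at 659, 685, 696, 851 and 659 in control mice and between 1102 and 1496 (median 1330.4) in heme-fed mice, a log2 fold change of 0.89 (SE 0.10, limma adjusted p = 1.25e-06). Slc51a was at 271, 322, 244, 287 and 290.2 and between 160.0 and 229.5 (median 181), a log2 fold change of -0.61 (SE 0.17, limma adjusted p = 0.00772), and it lost its call in 9 of the 11 omissions of a single mouse (adjusted p of up to 0.0255). Neither overlapped between the groups. Fkbp5, a co-chaperone of steroid hormone receptors and a target of glucocorticoids, had 0.77 (SE 0.14, limma adjusted p = 0.000304), and 0.92 (adjusted p = 2.66e-05) in the KO mice.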
